A study of Mus musculus with 9 samples.

Results

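The enzymes that attach glutathione, glucuronic acid or sulfate to other molecules were described in mouse liver across age and a virus directed at Fabp4. Members were all genes of the deposited count table whose symbol begins with Gsta, Gstm, Gstp, Gstt, Gsto, Gstk, Gstz, Mgst, Ugt1a, Ugt2, Ugt3 or Sult, except names containing -ps, the mark of a pseudogene. The rule found 67 of the 54532 genes: 22 cytosolic glutathione S-transferases (Gst), 3 microsomal ones (Mgst), 21 UDP-glucuronosyltransferases (Ugt) and 21 sulfotransferases (Sult). It left out 8 pseudogenes. Of the 67 members, 45 had enough counts to be tested, 15 had some counts but too few, and 7 (Sult1c1, Sult2a3, Sult2a4, Sult2a6, Sult6b2, Ugt2a1 and Ugt2a2) had 0 counts in all 9 libraries. Of the 15 with too few, Ugt1a7c had 118 counts over the 9 libraries, Mgst2 44, Sult3a1 34 and the others at most 16.

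Each library came from liver of wild-type C57BL/6 mice, an inbred laboratory strain, and the libraries are described as independent biological replicates, so p-values measure the spread between such samples. The 3 groups of 3 libraries were old Fabp4 shRNA, old control and young, each from a study group of 15 mice. The old Fabp4 shRNA mice were males of 20 months and had been given AAV9-shRNA-Fabp4 at 14 months, an adeno-associated virus that carries a short hairpin RNA against Fabp4, at 4e+11 viral genomes, through the tail vein and directly into subcutaneous white fat. The old control mice had the same age and the same injections with AAV9-shRNA-Neg, a negative control hairpin. The young mice were 8 weeks old; their sex is not stated separately and no injection of them is described, so age and virus cannot be told apart in a comparison with young liver. All mice ate normal chow. Tissue is labelled liver, yet the text on RNA extraction mentions NRVMs. Marker genes of hepatocytes summed to 68073 to 83464 in the livers labelled old Fabp4 shRNA, 83412 to 128845 in old control and 102341 to 162413 in young livers, in CPM (counts scaled to library size). At an unadjusted p under 0.05, 3 of 6 were lower in the labelled livers against young, beside 4.5% of all genes. Of the cardiomyocyte markers, Myh6 and Nppa were at 0 in all 9 libraries.

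Conjugation makes lipid-soluble compounds soluble in water, so that export pumps can move them into bile or blood. Glutathione S-transferases join the thiol of glutathione to reactive electrophiles, UDP-glucuronosyltransferases of the endoplasmic reticulum transfer glucuronic acid from UDP-glucuronate, and cytosolic sulfotransferases transfer sulfate from the donor PAPS. Liver is a main site of all these reactions, which handle drugs as well as bilirubin, bile acids, steroids and thyroid hormone.

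The targeted gene Fabp4, a fatty acid carrier of fat cells and macrophages, stood at 11.2, 3.81 and 7.58 CPM in livers labelled old Fabp4 shRNA (replicates 1, 3 and 6), against 7.21, 13.6 and 10.9 CPM in old control livers (replicates 1, 2 and 5). The ranges overlapped and the log2 difference was -0.49 ± 1.16 (edgeR quasi-likelihood test, adjusted p = 0.960), so lower Fabp4 RNA was not detectable and the group is named by its label throughout. Young livers had 3.40, 2.67 and 64.8 CPM in replicates 1 and 5 and a library with no animal number. This unnumbered young library also held skeletal muscle RNA, with Acta1 at 1105 CPM against at most 41.3 CPM in the others, that value being in the liver labelled old Fabp4 shRNA replicate 3. Total counts were 14243344 to 17125440 per library, of which the 67 members took 1.07% to 1.36%. Per-library values below follow the order of replicates given here, and CPM are scaled between libraries by edgeR's trimmed mean of M values.

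Summed transcript levels differed widely between families. Levels of different genes were compared per length only, as CPM per kb of exon, with the exon length behind the authors' FPKM values. The microsomal Mgst genes held 28.4% of the summed level of all members, the pi class 16.5%, Ugt2b 15.4%, the mu class 14.7% and Sult1 7.20%. Ugt1a held 0.399%. Mgst1, a membrane-bound transferase and peroxidase of the endoplasmic reticulum and mitochondria, led with a mean of 1790.2 CPM per kb over the 9 libraries, followed by Gstp1 at 1024 and Gstm1 at 804, the main transferases of the pi and mu classes. These 3 genes made up 56.9% of the summed level and the first 10 made up 83.4%. Ugt2b5 (416 CPM per kb), Sult1a1 (345), Ugt2b36 (278) and Sult2a8 (219) came next. The library ranges of Mgst1 (1419 to 2191 CPM per kb) and Gstp1 (431 to 1976) overlapped, as did those of Gstp1 and Gstm1 (429.9 to 1270.5), so the order of these neighbours was within the spread between livers. The length behind the FPKM values differs from the annotated exon length in 5 members, all 3 pi genes and both omega genes. For Gstp1 it is 757 bases, against 1548 annotated. With annotated lengths, an alternative chosen after seeing the data, Gstp1 stood at 501 CPM per kb, below Gstm1, and the pi class held 8.93% of the summed level, below Ugt2b at 16.8% and the mu class at 16.0%.

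By group, the pi class summed to 828 ± 489.9 CPM per kb in the livers labelled old Fabp4 shRNA, 669.5 ± 140.0 in old control and 1652 ± 431 in young livers (SD, n = 3 each). The Ugt1a family summed to 39.1 ± 29.5, 15.7 ± 5.44 and 21.2 ± 9.89 CPM per kb in the same groups. The single tested omega gene and the Ugt2a gene gave family sums of 54.7 ± 8.66 and 90.7 ± 7.20 CPM per kb in the livers labelled old Fabp4 shRNA, 51.3 ± 11.0 and 88.6 ± 21.1 in old control, and 79.5 ± 4.68 and 134 ± 5.58 in young livers, where all 3 young livers lay above all 6 old ones.

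**Figure D1:**
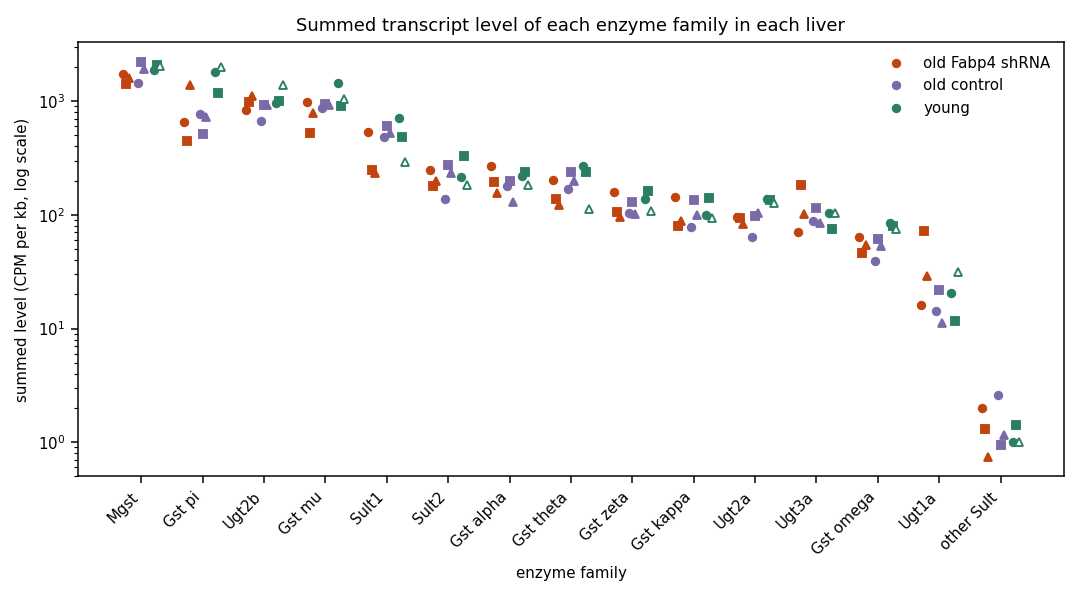
Summed transcript level of each enzyme family in each liver, in CPM per kb on a log axis, with old Fabp4 shRNA livers left, old control livers in the middle and young livers right within each family (circle, square and triangle in replicate order, open triangle for the unnumbered young library, no error bars; Sult3, close to 0, is not drawn). The pi, omega and Ugt2a families have their young livers at or near the top, and 1 liver labelled old Fabp4 shRNA stands highest for Ugt1a and Ugt3a.

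Members of a family mostly lie side by side in the genome. On GRCm38, all 7 mu genes lie on chromosome 3 between 107895821 and 108044894, all 3 pi genes on chromosome 19 between 4035407 and 4059569, and all 9 Ugt1a genes on chromosome 1 between 88055388 and 88220002. Chromosome 5 carries 13 members between 86889767 and 87591594: all Ugt2a and Ugt2b genes, then Sult1b1, Sult1d1 and Sult1e1. The Ugt1a genes have a first exon each and share their last exons, so that 50.3% to 60.6% of the exon bases of each belong to others of the family as well. An antisense gene, Gm20528, overlaps them, and how the authors' counting treated strand and shared exons is not given in the sources used here. Ugt1a values are therefore uncertain as to which member the reads came from. The same holds where near-identical copies exist: 80.6% of 100-base windows of Gsta1 occur in another gene too, 28.4% of Gsta2, 25.1% of Gstp1 and 46.9% of Gstp2. Mgst3, Sult1d1 and Sult1e1 had 0% of such windows.

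In the fit to all 9 libraries with edgeR, no member passed the adjusted test in any comparison; with DESeq2, or with edgeR and no filter on low counts, Gstp1 and Sult1e1 did in old control against young livers and Mgst3 in the labelled livers against young. In old control against young livers, which differ in age and in injection, edgeR's quasi-likelihood test with Benjamini-Hochberg adjustment over 14025 genes called 0 of 45 members, against 0.0357% of all genes. At an unadjusted p under 0.05, 1 member was higher and 6 were lower in old control, where 6.42% of all genes were higher and 4.07% lower (10.5% in either direction). These 7 members became 4 without old control replicate 1 and 14 with the animal number as a block, a number that was not taken to pair the animals. In 1 member all old control livers lay above all young livers and in 7 all lay below, where the shares over all genes were 8.89% and 8.26%. The log2 fold change was negative in 30 of 45 members and in 48.9% of all genes, and its median was -0.24 in the members and 0.01 over all genes.

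In livers labelled old Fabp4 shRNA against old control, which asks what the hairpin changed in old liver, edgeR called 0 members and 0 genes in all (0%), while 6.75% of all genes had an unadjusted p under 0.05. DESeq2 called 7 genes (0.0501%) and 0 members. At an unadjusted edgeR p under 0.05, 2 members were higher and 5 lower, beside 3.27% and 3.48% of all genes. These 7 members became 15 without the liver labelled replicate 1 of that group, and 3 without replicate 3 or without replicate 6. The log2 fold change was negative in 21 of 45 members and in 51.4% of all genes. Its median was 0.01 in the members and -0.01 over all genes. All 3 libraries were lower in 5 members (5.67% of all genes) and higher in 1 (6.02%).

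In livers labelled old Fabp4 shRNA against young livers, edgeR called 0 members, against 0.057% of all genes. At an unadjusted p under 0.05, 2 members were higher and 7 lower (4.43% and 4.5% of all genes). These 9 members became 17 without replicate 1 of the labelled group, 2 without its replicate 3, 2 without young replicate 1, 4 without young replicate 5, and 16 when the unnumbered young library was represented by the reads behind its FPKM values. In either direction 8.93% of all genes had such a p. All 3 libraries were lower in 7 members and higher in 1, beside 6.67% and 6.79% of all genes. The log2 fold change was negative in 32 of 45 members and in 47.8% of all genes, with a median of -0.26 in the members and 0.02 over all genes. The old control libraries stand in 2 of the comparisons and so do the young and the labelled libraries, so the lists are not independent of each other. Without any scaling beyond total counts, the median of all genes moved by over 0.1 in each comparison, to 0.16, 0.13 and 0.31 in the order given, and the members stood -0.25, 0.07 and -0.29 from it.

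**Figure D2:**
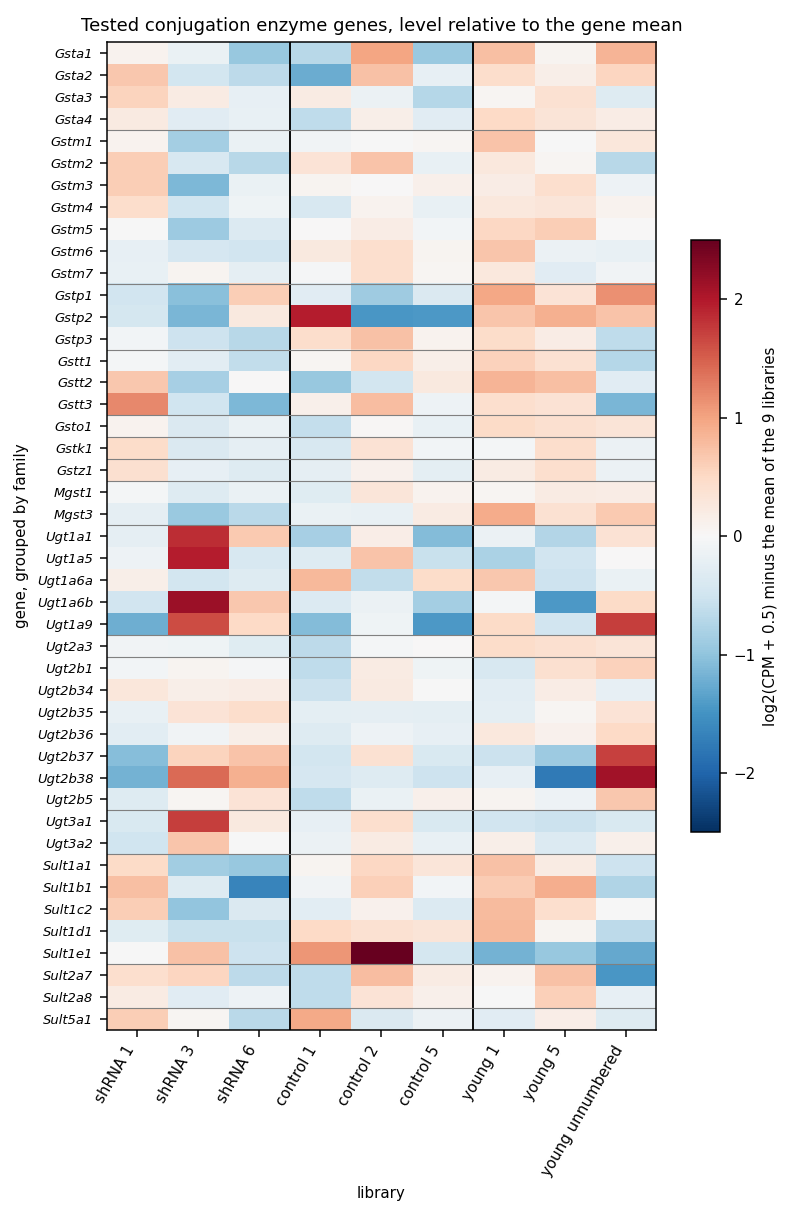
Level of the 45 tested members in each of the 9 libraries, as log2(CPM + 0.5) minus the gene's mean over the 9 libraries (red above the mean, blue below), with old Fabp4 shRNA libraries left, old control in the middle and young right; vertical lines part the groups and horizontal lines the families. Sult1e1 is lowest in the 3 young libraries, and Ugt1a1, Ugt1a5, Ugt1a6b and Ugt3a1 are highest in old Fabp4 shRNA replicate 3.

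Among the alpha class, Gsta4, which conjugates lipid peroxidation products such as hydroxynonenal, had 52.0, 36.5 and 39.4 CPM in the livers labelled old Fabp4 shRNA, 28.7, 49.7 and 36.8 CPM in old control and 63.2, 56.0 and 51.0 CPM in young livers. All 3 old control livers lay below all 3 young ones, with a log2 fold change of -0.56 ± 0.23 (edgeR adjusted p = 0.427). The labelled livers overlapped both other groups. Gsta3, the most abundant alpha gene per length, known in mice for detoxifying aflatoxin epoxide, showed overlapping groups in all comparisons, with log2 fold changes of -0.24 in old control against young, 0.39 in the labelled livers against old control and 0.15 in the labelled livers against young. All 4 alpha genes had a negative value in old control against young livers, from -0.76 to -0.24. Over the 4 genes the log2 fold changes ran from -0.49 to 0.39 in labelled livers against old control, from -0.76 to -0.24 in old control against young and from -1.25 to 0.15 in labelled livers against young.

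In the mu class, Gstm1 had 1218, 633 and 1019.8 CPM in the livers labelled old Fabp4 shRNA, 1079.8, 1141 and 1176 CPM in old control and 1871, 1131 and 1392 CPM in young livers. Replicate 3 of the labelled group was the lowest of the 9 and young replicate 1 the highest. In the labelled livers against young the log2 fold change was -0.61 ± 0.28 (edgeR adjusted p = 0.557), and it was -0.39 without labelled replicate 3, -0.40 without young replicate 1 and -0.82 without labelled replicate 1. Gstm6 stood at 52.9, 45.3 and 43.6 CPM in the labelled livers, against 71.8, 81.2 and 63.8 CPM in old control livers. All 3 labelled livers lay below all 3 controls, with a log2 fold change of -0.61 ± 0.25 (edgeR adjusted p = 0.728), and below all 3 young livers (98.5, 54.7 and 53.1 CPM). Gstm5 had 9.16, 4.74 and 7.26 CPM in the labelled livers, against 13.5, 14.4 and 9.39 CPM in young livers, with no overlap and a log2 fold change of -0.82 ± 0.29 (edgeR adjusted p = 0.461). An antisense gene overlaps 13.9% of the Gstm5 exon bases. Gstm4 was lower in all 3 old control livers than in all young ones at -0.38 on the log2 scale, and Gstm2, second in level in this class, stood at 0.41, -0.38 and 0.02 in the 3 comparisons, its groups overlapping in each. Over the 7.0 mu genes the log2 fold changes ran from -0.61 to 0.16 in labelled livers against old control, from -0.38 to 0.41 in old control against young and from -0.82 to 0.02 in labelled livers against young.

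The pi class held the glutathione transferase with the smallest p in old control against young livers. Gstp1 (ENSMUSG00000060803; chromosome 19, 4035407 to 4037985, minus strand), a transferase that in mice is more abundant in male than in female liver, had 484, 326 and 1032 CPM in the livers labelled old Fabp4 shRNA, 554, 364 and 530.1 CPM in old control and 1332, 861 and 1496 CPM in young livers. All old control livers lay below all young ones. The means of these 2 groups were 483 ± 103 CPM and 1229.8 ± 329 CPM (SD, n = 3 each), and the log2 fold change was -1.35 ± 0.39 (edgeR adjusted p = 0.296). DESeq2 gave -1.37 ± 0.39 with an adjusted p of 0.0360 and called 1.2% of all genes, and edgeR with no filter on low counts gave -1.38 ± 0.32 with an adjusted p of 0.0220. Of the livers labelled old Fabp4 shRNA, replicate 6 lay among the young livers, replicate 1 within the old control range and replicate 3 below it. The log2 fold changes were 0.35 ± 0.39 against old control and -1.0 ± 0.39 against young livers (edgeR adjusted p = 0.906 and 0.495). Against young livers it was -1.60 without labelled replicate 6 and -0.70 without labelled replicate 3. The pseudogene Gstp-ps, outside the rule and named for its counts after they were seen, had 151, 44.2 and 216 CPM in the labelled livers, 127, 93.3 and 150.4 in old control and 327, 328 and 299 in young livers. Its log2 fold change in old control against young was -1.37 ± 0.44 (edgeR adjusted p = 0.363), and how reads were divided between the gene and the pseudogene was not tested.

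Gstp2, a near copy of Gstp1, had 2.75, 1.49 and 4.75 CPM in the livers labelled old Fabp4 shRNA, 16.7, 1.10 and 1.14 CPM in old control and 6.65, 7.63 and 6.70 CPM in young livers. Old control replicate 1 stood far above the others, and the labelled livers lay below all young ones. Gstp3 stood at 11.5, 8.33 and 7.26 CPM in the labelled livers, against 16.6, 20.4 and 12.9 CPM in old control. The labelled livers lay below all controls, with a log2 fold change of -0.88 ± 0.31 (edgeR adjusted p = 0.728), while the young livers (16.9, 13.9 and 7.60 CPM) overlapped both.

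The 250 bases before the RefSeq start of Gstp1 are shown because this gene had the lowest unadjusted p of the glutathione transferases in old control against young livers. Sequences are RefSeq's on GRCm38.p6, 5′ to 3′ on the gene's strand. Motifs were searched on both strands of 300 bases a gene, from 250 before to 50 after the start, in 59 members with an entry and in 27025 genes. Capitals mark an AP-1 site (TGANTCA, in 7.93% of all promoters and in 11 of 59 members), 74 to 68 bases before the start, and a xenobiotic response element core (GCGTG, in 32.5% and in 11 of 59), 13 to 9 bases before it (chr19:4037913-4038162, minus strand). The RefSeq start lies inside the gene as placed above from GENCODE, so the last 73 printed bases are within that gene. They include GCGTG and the AP-1 site except for its first base. The antioxidant response element core (TGACNNNGC), the motif of the NRF2 factor, occurred in 12.5% of promoters and in 3 of 59 members (Gsta3, Gstm5 and Mgst1), and a TATA box (TATAAA) in 14.2% and in 14 of 59. A match describes letters only.
Gstp1: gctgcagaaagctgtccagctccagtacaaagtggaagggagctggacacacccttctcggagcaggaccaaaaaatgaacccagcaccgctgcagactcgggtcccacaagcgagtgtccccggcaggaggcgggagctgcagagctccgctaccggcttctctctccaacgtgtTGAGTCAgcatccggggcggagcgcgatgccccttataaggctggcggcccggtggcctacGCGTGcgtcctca

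Of the theta class, which acts on small halogenated compounds, Gstt1 had 206, 177 and 138 CPM in the livers labelled old Fabp4 shRNA, against 219, 304 and 236 CPM in old control livers. All labelled livers lay below all controls, with a log2 fold change of -0.54 ± 0.31 (edgeR adjusted p = 0.772), and young livers (316, 276 and 129 CPM) spanned both groups. Gstt2 stood at 59.9, 84.6 and 139 CPM in old control and 209.6, 198 and 95.5 CPM in young livers, overlapping, with a log2 fold change of -0.83 ± 0.43 (edgeR adjusted p = 0.529). Over the 3.0 theta genes the log2 fold changes ran from -0.54 to 0.38 in labelled livers against old control, from -0.83 to 0.28 in old control against young and from -0.47 to 0.17 in labelled livers against young.

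Gsto1, the omega transferase that reduces dehydroascorbate, was among the members whose old and young livers did not overlap. It had 126, 91.4 and 106 CPM in the livers labelled old Fabp4 shRNA, 77.8, 120.5 and 104 CPM in old control and 166, 155 and 148 CPM in young livers. The log2 fold changes against young livers were -0.54 ± 0.22 for the labelled livers and -0.63 ± 0.22 for old control (edgeR adjusted p = 0.513 and 0.378). Gstk1, the mitochondrial and peroxisomal kappa transferase, and Gstz1, the maleylacetoacetate isomerase of tyrosine breakdown, overlapped in every comparison. In the labelled livers against old control their log2 fold changes had 95% intervals of -0.61 to 0.61 and -0.46 to 0.67.

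Of the microsomal transferases, Mgst3, an enzyme of the MAPEG family with glutathione transferase and peroxidase activity, had 15.1, 8.99 and 10.9 CPM in the livers labelled old Fabp4 shRNA, 15.8, 15.5 and 20.6 CPM in old control and 34.0, 23.2 and 28.1 CPM in young livers. The 3 groups did not overlap at any point: every labelled liver lay below every control, and every control below every young liver, with labelled replicate 1 and old control replicate 2 nearest to each other. The log2 fold changes were -0.57 ± 0.25 in labelled livers against old control, -0.72 ± 0.25 in old control against young and -1.29 ± 0.25 in labelled livers against young (edgeR adjusted p = 0.728, 0.372 and 0.149). In the last of these, DESeq2 gave -1.30 ± 0.28 with an adjusted p of 0.00155 and called 0.887% of all genes, edgeR with no filter gave 0.00191, and edgeR without replicate 1 of the labelled group gave -1.51 ± 0.26 with 0.0279. Over all 9 fits that leave out 1 library, the edgeR adjusted p ran from 0.0279 to 0.686 and the fold change from -1.51 to -1.13.

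Mgst1 had 3430.1, 2856 and 3192 CPM in the livers labelled old Fabp4 shRNA, 2882, 4411 and 3805 CPM in old control and 3679, 4129.6 and 4049 CPM in young livers. The labelled livers lay below all young livers, with a log2 fold change of -0.32 ± 0.25 (edgeR adjusted p = 0.712). The 95% intervals were -0.77 to 0.31 against old control and -0.63 to 0.44 for old control against young. Mgst2 had at most 17 counts in a library and was not tested.

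The stretch before the Mgst3 start (chr1:167393842-167394091, minus strand) is shown because this gene parted all 3 groups. Capitals mark a GCGTG core, 22 to 18 bases before the start.
Mgst3: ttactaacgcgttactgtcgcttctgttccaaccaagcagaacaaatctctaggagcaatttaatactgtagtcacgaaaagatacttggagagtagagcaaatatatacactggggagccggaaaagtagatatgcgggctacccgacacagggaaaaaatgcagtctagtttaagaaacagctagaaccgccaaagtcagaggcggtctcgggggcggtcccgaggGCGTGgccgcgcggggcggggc

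**Figure D3:**
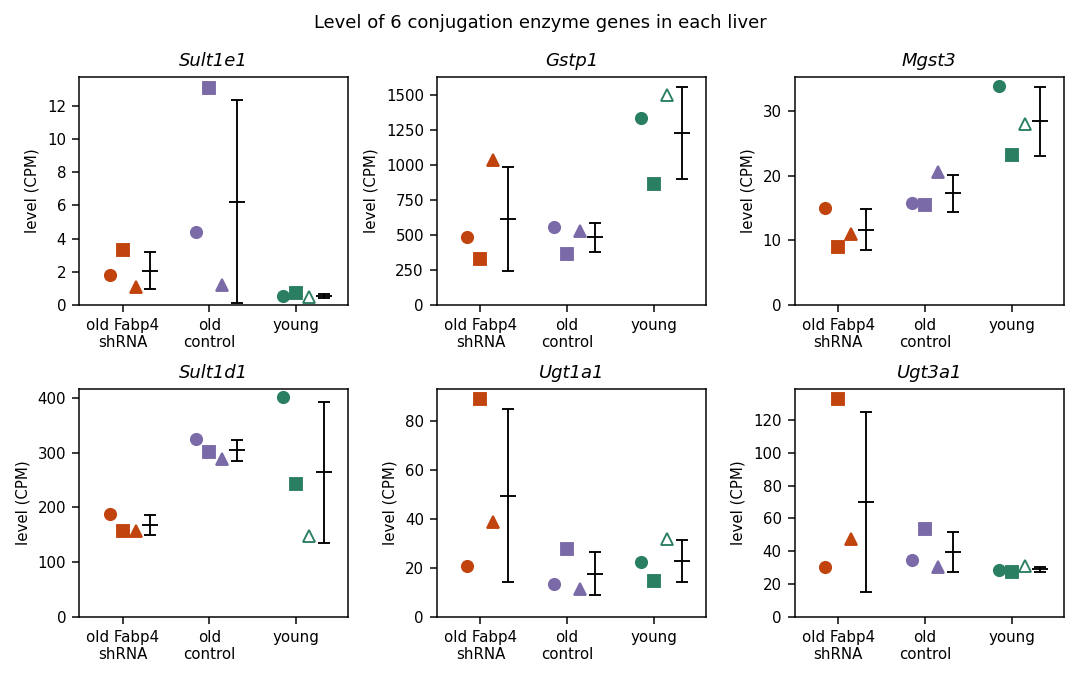
Level in CPM (linear axis from 0) of 6 members in each liver, with old Fabp4 shRNA left, old control in the middle and young right; circle, square and triangle are the livers in replicate order, the open triangle is the unnumbered young library, and the black mark with its bar is the mean ± SD of 3 livers. Mgst3 falls into 3 separate ranges, Sult1e1 is highest in old control replicate 2, and Ugt1a1 and Ugt3a1 are highest in old Fabp4 shRNA replicate 3.

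Among the UDP-glucuronosyltransferases, the Ugt1a genes spread widely between livers of one group. Over the 5.0 tested ones the log2 fold changes ran from -0.56 to 1.67 in labelled livers against old control, from -1.76 to 0.50 in old control against young and from -0.30 to 1.42 in labelled livers against young. Ugt1a1, the enzyme that conjugates bilirubin, had 20.9, 89.2 and 38.8 CPM in the livers labelled old Fabp4 shRNA, 13.5, 27.8 and 11.4 CPM in old control and 22.3, 14.6 and 31.8 CPM in young livers. Replicate 3 of the labelled group stood above all others, and replicate 1 lay within the control range. The log2 fold change against old control was 1.5 ± 0.55 (edgeR adjusted p = 0.728), and without replicate 3 it was 0.77 ± 0.44 (0.898). Ugt1a6b, which conjugates simple phenols, had 4.76, 32 and 11.2 CPM in the labelled livers, against 5.29, 6.18 and 3.60 CPM in old control and 6.65, 2.21 and 9.71 CPM in young livers. Its log2 fold change against old control was 1.67 ± 0.69 (edgeR adjusted p = 0.728), and 0.67 ± 0.55 (0.943) without replicate 3.

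Ugt1a9, another phenol-conjugating member, had 2.26, 19.5 and 8.67 CPM in the livers labelled old Fabp4 shRNA, 2.56, 5.52 and 1.89 CPM in old control and 8.50, 4.12 and 20.9 CPM in young livers. The unnumbered young library and the labelled replicate 3 were the highest, and the groups overlapped. In old control against young the log2 fold change was -1.76 ± 0.82 (edgeR adjusted p = 0.494), and -0.97 ± 0.79 without the unnumbered young library. Ugt1a7c, too low to be tested, had 85 counts in labelled replicate 3, 26 in replicate 6 and 0 in replicate 1, against 1, 0 and 0 in old control and 0, 0 and 6 in young livers. Ugt1a6a did not share this pattern: it had 8.61, 5.52 and 6.06 CPM in the labelled livers, 13.9, 4.86 and 10.9 CPM in old control and 12.6, 5.27 and 6.90 CPM in young livers. Both libraries high in Ugt1a9 were also those with skeletal muscle RNA, whose part in these values was not tested.

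The sequences before the starts of Ugt1a1 (chr1:88211709-88211958, plus strand) and Ugt1a9 (chr1:88070529-88070778, plus strand) are shown because the counts of these 2 genes of one locus, each with a start of its own, differed from library to library. Capitals in Ugt1a1 mark the motif GTTAAT, printed as its reverse complement, 41 to 36 bases before the start. In Ugt1a9 they mark a nuclear receptor half-site (AGGTCA), 201 to 196 bases before it, and GTTAAT, again as its reverse complement, 91 to 86 bases before it. The letters GTTAAT occurred in 7.20% of all promoters and in 14 of 59 members, the nuclear receptor letters in 16.0% and in 10 of 59.
Ugt1a1: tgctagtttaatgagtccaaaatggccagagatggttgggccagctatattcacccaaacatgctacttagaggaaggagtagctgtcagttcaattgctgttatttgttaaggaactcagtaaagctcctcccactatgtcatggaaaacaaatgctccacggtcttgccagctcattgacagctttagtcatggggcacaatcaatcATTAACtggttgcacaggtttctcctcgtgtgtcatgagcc
Ugt1a9: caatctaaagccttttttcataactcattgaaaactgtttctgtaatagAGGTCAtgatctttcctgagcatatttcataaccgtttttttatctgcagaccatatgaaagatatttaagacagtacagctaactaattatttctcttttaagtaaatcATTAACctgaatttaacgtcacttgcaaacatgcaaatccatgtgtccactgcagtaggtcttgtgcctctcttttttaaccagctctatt

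The Ugt2 enzymes, which conjugate steroids, bile acids and drugs, were led by Ugt2b5. Ugt2a3 had 203, 198 and 175 CPM in the livers labelled old Fabp4 shRNA, 136, 209 and 218 CPM in old control and 294, 283 and 271 CPM in young livers. All 6 old livers lay below all 3 young ones, with log2 fold changes of -0.56 ± 0.22 and -0.59 ± 0.22 for the labelled and the control livers against young (edgeR adjusted p = 0.513 and 0.403). Ugt2b36 stood at 447, 517 and 488 CPM in old control livers, against 673, 603 and 793 CPM in young livers, with no overlap and a log2 fold change of -0.51 ± 0.22 (edgeR adjusted p = 0.445). Ugt2b35 had 122, 176 and 189 CPM in the labelled livers, against 117, 119 and 118 CPM in old control. It was the single member above all controls in every labelled liver, at 0.46 ± 0.23 (edgeR adjusted p = 0.741). All 7 Ugt2b genes had a positive value in that comparison, from 0.13 to 1.22, and 6 of 7 a negative one in old control against young. Old control replicate 1 was the lowest of the 9 libraries in 5 of the 7 Ugt2b genes and the unnumbered young library the highest in 5. Ugt2b5, the most abundant, had 597, 771 and 950.3 CPM in the labelled livers, 486, 668 and 817 in old control and 789, 686 and 1189 in young livers, and its groups overlapped.

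Ugt3a1, whose human form transfers N-acetylglucosamine in place of glucuronic acid, had 30.5, 133 and 47.2 CPM in the livers labelled old Fabp4 shRNA, 34.5, 53.4 and 30.4 CPM in old control and 28.5, 27.3 and 30.6 CPM in young livers. The young livers lay close together and labelled replicate 3 stood apart. The log2 fold changes of the labelled livers were 1.29 ± 0.47 against young and 0.83 ± 0.46 against old control (edgeR adjusted p = 0.490 and 0.769), and without replicate 3 they were 0.43 ± 0.27 and -0.02 ± 0.27. Ugt3a2 had its highest value in the same library, 184, 418 and 258 CPM in the labelled livers, against 234, 297 and 228 CPM in old control and 286, 203 and 283 CPM in young livers.

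Among the sulfotransferases, Sult1e1 (ENSMUSG00000029272; chromosome 5, 87575969 to 87591594, minus strand), which inactivates estrogens by sulfation, had the smallest p of all members in old control against young livers. It had 1.77, 3.31 and 1.10 CPM in the livers labelled old Fabp4 shRNA (29, 60 and 21 counts), 4.42, 13.1 and 1.20 CPM in old control livers (76, 178 and 19 counts) and 0.517, 0.687 and 0.447 CPM in young livers (7, 9 and 7 counts). All old control livers lay above all young livers, and replicate 2 was the highest by far. The log2 fold change was 3.49 ± 0.79 (edgeR adjusted p = 0.192), and it ran from 2.34 without old control replicate 2 to 3.98 without replicate 5 (0.321 and 0.0769). DESeq2 gave 3.50 ± 0.73 with an adjusted p of 0.00131, and edgeR with no filter on low counts 3.46 ± 0.69 with 0.0160. The livers labelled old Fabp4 shRNA lay above all young livers and overlapped old control. Against old control the log2 fold change was -1.59 ± 0.70 (edgeR adjusted p = 0.728), and -0.44 ± 0.63 without old control replicate 2; against young livers it was 1.90 ± 0.79 (0.525).

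Its neighbour Sult1d1 (ENSMUSG00000029273; chromosome 5, 87554645 to 87569027, minus strand), which in mice sulfates catecholamines, lay lower in the labelled livers. It had 188, 157 and 156 CPM in the livers labelled old Fabp4 shRNA, against 326, 301 and 288 CPM in old control livers. The labelled livers lay within a narrow range below all controls, with means of 167 ± 18.2 and 305 ± 19.3 CPM (SD, n = 3 each). The log2 fold change was -0.87 ± 0.31, the smallest p of all members in that comparison (edgeR adjusted p = 0.728), and from -0.96 to -0.82 when any 1 library was left out (adjusted p from 0.449 to 0.997). Young livers had 403, 243 and 148 CPM, with the unnumbered library below and replicate 1 above all other libraries.

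The stretches before the starts of Sult1e1 (chr5:87591612-87591861, minus strand) and Sult1d1 (chr5:87569007-87569256, minus strand) are shown because these neighbours had the smallest p of all members in old control against young (Sult1e1) and in labelled livers against old control (Sult1d1). Capitals in Sult1e1 mark the nuclear receptor half-site AGGTCA, printed as its reverse complement, 113 to 108 bases before the start. In Sult1d1 they mark GTTAAT, 79 to 74 bases before the start, and the xenobiotic response element core as its reverse complement, 47 to 43 bases before it. The last 21 printed bases of Sult1d1 lie inside the gene as placed above.
Sult1e1: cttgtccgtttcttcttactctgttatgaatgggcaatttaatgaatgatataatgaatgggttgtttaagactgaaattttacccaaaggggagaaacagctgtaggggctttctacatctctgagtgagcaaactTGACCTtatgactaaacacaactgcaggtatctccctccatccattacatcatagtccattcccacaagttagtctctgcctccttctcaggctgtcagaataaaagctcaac
Sult1d1: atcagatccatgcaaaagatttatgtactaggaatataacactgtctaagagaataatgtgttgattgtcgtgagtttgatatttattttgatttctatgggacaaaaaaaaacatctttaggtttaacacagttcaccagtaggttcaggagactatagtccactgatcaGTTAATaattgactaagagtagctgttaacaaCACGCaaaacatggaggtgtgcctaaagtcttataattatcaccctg

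Sult1a1, the main phenol sulfotransferase of liver and the most abundant sulfotransferase per length, had 668, 264 and 252 CPM in the livers labelled old Fabp4 shRNA, 507, 694 and 595 CPM in old control and 806, 558 and 339 CPM in young livers. Labelled replicates 3 and 6 were the lowest of the 9, while replicate 1 lay within the control range, and the log2 fold change against old control was -0.60 ± 0.40 (edgeR adjusted p = 0.824). Sult1b1, which sulfates thyroid hormone, gave -0.23, -0.29 and -0.53 on the log2 scale in the 3 comparisons, with overlapping groups. Over the 5.0 tested Sult1 genes the log2 fold changes ran from -1.59 to 0.07 in labelled livers against old control, from -0.69 to 3.49 in old control against young and from -0.66 to 1.90 in labelled livers against young. Sult2a8, which in mice sulfates bile acids, had 806, 576 and 643 CPM in the labelled livers, 449, 889 and 759.9 CPM in old control and 695, 1059 and 604 CPM in young livers, and Sult2a7 stayed between 0.511 and 4.27 CPM, both with overlapping groups. Sult3a1, an amine sulfotransferase, had 21 counts in old control replicate 2 and at most 7 elsewhere, too few to be tested. Sult5a1, the most abundant of the remaining families, had log2 fold changes of 0.44, -0.20 and 0.24.

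**Figure D4:**
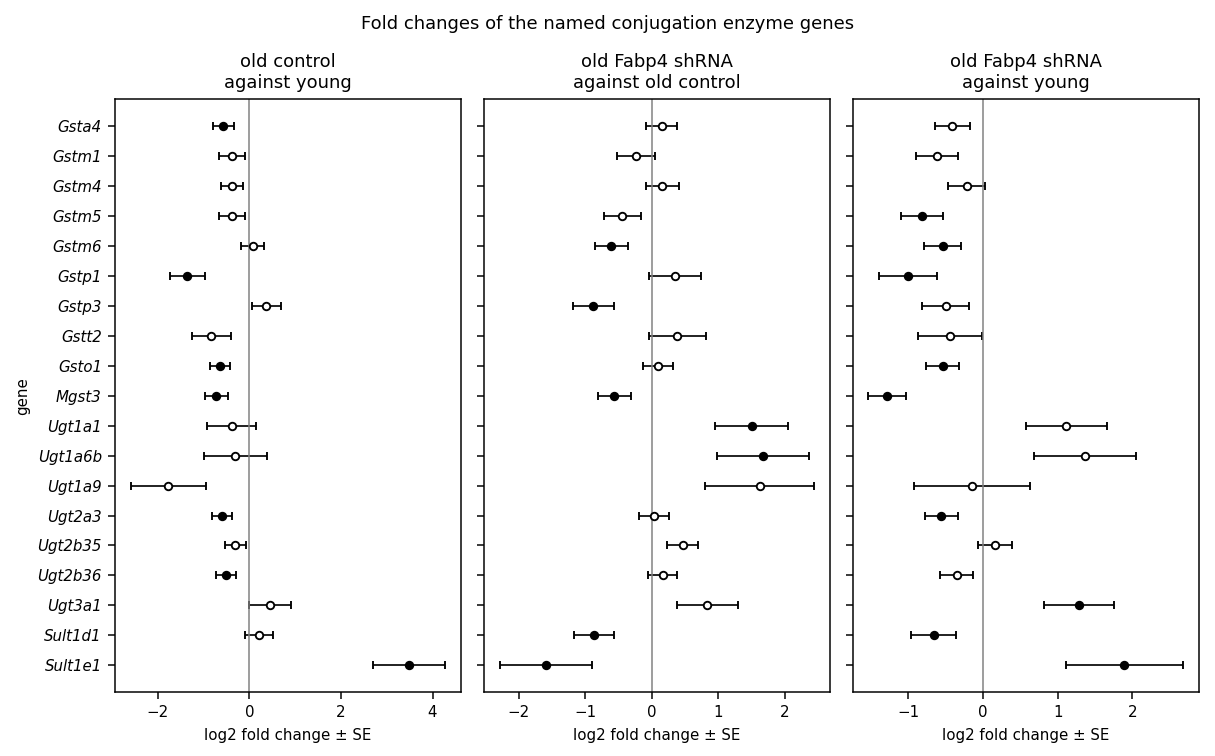
Log2 fold changes ± SE of the 19 members that are among the 10 with the smallest p in at least 1 comparison, one panel per comparison with its own scale (first group over second); filled points have an unadjusted edgeR p under 0.05, and 0 of the points pass the adjusted test. Sult1e1 lies right of 0 in both comparisons with young liver and left of 0 in labelled livers against old control, and Mgst3 lies left of 0 in all 3.

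Genes that feed these reactions or carry their products away were counted from 8 lists, and 0 of their tested genes were called by edgeR after adjustment in any comparison. At an unadjusted p under 0.05, 6.42% of all genes were higher and 4.07% lower in old control against young livers. There, glutathione supply and recycling had 1 of 17 tested genes higher at that p and 0 lower. That gene was Gclc, the catalytic subunit of the rate-limiting enzyme of glutathione synthesis, with 253, 314 and 224 CPM in old control livers, against 165, 126 and 154 CPM in young livers and a log2 fold change of 0.83 ± 0.34. In the supply of UDP-glucuronate 1 of 8 tested genes was lower, Ugp2, which makes UDP-glucose, at -0.73. The list of sulfate donor (PAPS) supply and desulfation had 1 of 9 lower, the PAPS transporter Slc35b2 at -0.67. Of 8 export pumps 1 was lower, Abcb1a at -1.53. Its levels were 1.39, 1.18 and 1.45 CPM in old control, against 3.55, 2.06 and 6.07 CPM in young livers. Of 12 tested targets of the xenobiotic sensors NRF2, CAR, PXR and AHR outside the enzyme families, 3 were lower and 0 higher: the esterase Ces2a (-0.81), Cyp1a1 (-2.0) and the epoxide hydrolase Ephx1 (-0.74). Of 19 regulators 0 had an unadjusted p under 0.05 in either direction; Rxra, the shared partner of several nuclear receptors, stood at -0.47 with all old control livers below all young ones, as in 8.26% of all genes. Dbp, a clock-controlled factor whose RNA varies with the time of day, had 53.5, 0.496 and 4.86 CPM in the livers labelled old Fabp4 shRNA, 0.581, 0.589 and 16.4 CPM in old control and 100.3, 90.1 and 32.4 CPM in young livers, and its part in the values above was not tested.

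In livers labelled old Fabp4 shRNA against old control, where 3.27% of all genes were higher and 3.48% lower at that p, the glutathione list had 2 of 17 higher, the glutathione peroxidase Gpx1 with 2027, 1843 and 2209 CPM in the labelled livers, against 1190.4, 1436 and 768 CPM in old control, and the oxoprolinase Oplah at 0.64. The regulators had 2 of 19 higher. Rxra had 351, 425 and 372 CPM in the labelled livers, against 254, 248 and 183 CPM in old control, with no overlap and a log2 fold change of 0.75 ± 0.22 (edgeR adjusted p = 0.728). Ppara, the fatty acid receptor, had 33.8, 107 and 32.7 CPM, against 25.7, 36.9 and 27.2 CPM in old control, and its highest value was again in replicate 3. Of the xenobiotic targets Ephx1 was higher (0.84) and Tiparp lower (-0.62). The lists of export pumps, UDP-glucuronate supply, and sulfate donor supply and desulfation had 0 in either direction. Papss1, a PAPS synthase, stood at -0.68 with all labelled livers below all controls, as in 5.67% of all genes.

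In livers labelled old Fabp4 shRNA against young livers, 4.43% of all genes were higher and 4.5% lower at that p. There, the glutathione list had 1 higher (Oplah, 0.63) and 1 lower (Cth, which makes cysteine, -0.83). UDP-glucuronate supply had 1 lower (Ugp2, -0.72) and the xenobiotic targets 1 lower (Ces2a, -0.56). The list of sulfate donor supply and desulfation had 1 higher (Bpnt1, 0.68). Among the regulators Ppara was higher, at 1.27. Several conjugation enzymes are sex-biased in mouse liver, so genes with known sex bias were counted as well. At an unadjusted edgeR p under 0.05, 5 of 9 male-biased genes were lower and 1 higher in old control against young livers (4.07% and 6.42% of all genes). In the labelled livers against young 3 were lower and 1 higher (4.5% and 4.43% of all genes). In the labelled livers against old control 0 of 9 had such a p, beside 6.75% of all genes in either direction. Hsd3b5, a steroid enzyme of male liver, had 7.75, 5.02 and 5.02 CPM in the labelled livers, 10.8, 1.40 and 6.63 CPM in old control and 28.9, 28.7 and 27.5 CPM in young livers. Of 4 tested female-biased genes, 0 had an unadjusted p under 0.05 in labelled livers against old control.

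Marker sums of other cell types differed between groups, and their part in the values above was not tested. In whole liver, fewer cells of a type and less RNA per cell cannot be told apart. At an unadjusted p under 0.05, 6.42% of all genes were higher and 4.07% lower in old control against young, 4.43% and 4.5% in labelled livers against young, and 3.48% lower in labelled livers against old control. Summed over the 5 neutrophil markers, CPM were 5.52 to 14.3 in the livers labelled old Fabp4 shRNA, 16.4 to 53.4 in old control and 11.4 to 22.3 in young livers; all 4 tested ones were lower at an unadjusted p under 0.05 in the labelled livers against old control, and Ly6g was at 0 in all 3 labelled livers and at most 0.128 CPM elsewhere. The 6 bile duct markers summed to 21.9 to 41.4 in the livers labelled old Fabp4 shRNA, 65.1 to 158 in old control and 54.0 to 57.4 in young livers, and the 5 Kupffer cell markers to 60.6 to 168 in the livers labelled old Fabp4 shRNA, 115 to 433 in old control and 103 to 222 in young livers. The 6 markers of sinusoidal endothelium summed to 89.1 to 186 in the livers labelled old Fabp4 shRNA, 98.3 to 186 in old control and 69.3 to 87.4 in young livers, with 4 of 6 higher at an unadjusted p under 0.05 in each old group against young. The 5 red blood cell markers summed to 170.1 to 359 in the livers labelled old Fabp4 shRNA, 188 to 328 in old control and 520.4 to 1025 in young livers, and the 5 markers of stellate cells and fibroblasts to 170.3 to 236 in the livers labelled old Fabp4 shRNA, 161 to 323 in old control and 101 to 132 in young livers.

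The 7 periportal markers summed to 5385 to 7112 in the livers labelled old Fabp4 shRNA, 7819 to 8708 in old control and 5598 to 13569 in young livers. At an unadjusted p under 0.05, 5 of 7 were lower in each old group against young (4.07% of all genes for old control, 4.5% for labelled livers). The 7 pericentral markers summed to 11115 to 20424 in the livers labelled old Fabp4 shRNA, 9233 to 13676 in old control and 9002 to 17667 in young livers. At that p, 2 of 7 were higher in labelled livers against old control, beside 3.27% of all genes. Against young, 1 of 7 was higher in each old group, beside 6.42% of all genes for old control and 4.43% for labelled livers. In all 3 comparisons 0 pericentral markers were lower at that p. The 5 lymphocyte markers summed to 3.09 to 10.4 in the livers labelled old Fabp4 shRNA, 3.09 to 12.8 in old control and 5.27 to 8.80 in young livers, the 4 adipocyte markers to 0 to 0.733 in the livers labelled old Fabp4 shRNA, 0 to 2.43 in old control and 0 to 0.458 in young livers, the 4 cardiomyocyte markers to 0.470 to 1.10 in the livers labelled old Fabp4 shRNA, 0.291 to 2.43 in old control and 0.229 to 0.813 in young livers and the 6 skeletal muscle markers to 1.15 to 73.4 in the livers labelled old Fabp4 shRNA, 0.589 to 1.69 in old control and 1.60 to 3087 in young livers. Of the 4 adipocyte markers, Plin1 and Lep were at 0 in all livers but old control replicate 2, while Adipoq and Retn had some counts in every group. Old control replicate 2 also had the highest Sult1e1, and any part of fat cell RNA in that value was not tested.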

How the data were processed

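RNA sequencing of 9 mouse livers in 3 groups of 3 was analysed. HISAT2 and GRCm38.p6 are named in the submitters' processing notes; how reads were assigned to genes, with which annotation and strand setting, was not given in the sources used here. All tests rest on the deposited table of whole read counts per Ensembl gene. The FPKM table deposited by the authors, by its unit scaled to exon length and library size, served for exon lengths (count over FPKM, calibrated to GENCODE M21; 43 of 47 members with a value equalled its exon length within 0.001) and for the ranking of members by level. The planned FPKM per library were replaced by CPM per kb, since under the young column named Y2 the tables differ: the ratio of FPKM to count was constant per gene for 100% of 10483 genes in 8 columns and for 0.229% in that one. That name matches no numbered young mouse, so it was placed in the young group without an animal number. Whole reads recovered from its FPKM column (100% of 17252 values whole within 0.05 reads, 226 genes not recovered) served as an alternative. The number of columns that matched no group was 0.

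Counts were filtered with filterByExpr by group, TMM-scaled (trimmed mean of M values, factors 0.825 to 1.15) and fitted with edgeR 4.0.16 in R 4.3.3 (robust quasi-likelihood, 1 mean per group, all 9 libraries, 6 residual degrees of freedom, biological coefficient of variation 0.320). P-values are two-sided, Benjamini-Hochberg adjusted over 14025 genes, and called under 0.05; standard errors are the log2 fold change over the root of F, and group errors are SD. The floor of 3 counts stood for 0.157 to 0.229 CPM and covers counting error only. Livers of 3 against 3 allow no exact permutation p under 0.1. The pipeline was tested on simulated counts.

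Alternatives were DESeq2 size factors, no scaling, no filter or at least 10 counts in every library, DESeq2 1.42.0, limma-voom 3.58.1, fits to the 6 libraries compared, annotated exon lengths (chosen after seeing the data), the recovered reads, a block for animal number, and 9 fits without 1 library each. The text names the 10 members with the smallest p per comparison, the most abundant member of each family (2 in families of 5 or more), Fabp4, and pathway genes from among the 3 with the smallest p per list and comparison; Ugt1a6a, Ugt1a7c, Ugt1a5, Gstp2, Sult1b1, Mgst2, Dbp and further genes with their values were added after those were seen. The members, the 8 pathway lists and the 13 marker lists were chosen with earlier results of these data known. Sts was not found in the table. Some genes of the lists are not reported here.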

Additional observations from a re-analysis of the deposited data

How the results depend on the processing

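Under the alternatives run, 509 of 517 values of the named members kept their direction and side of the adjusted threshold. No filter and DESeq2 gave 2 members called in old control against young (Gstp1 and Sult1e1) and 1 in livers labelled old Fabp4 shRNA against young (Mgst3), which leaving out replicate 1 of the labelled group also gave; over the fits that leave out 1 library the count was 0 to 1. With the animal number as a replicate block, old control against young had 0 members called and a median of -0.38, with 14 members at an unadjusted p under 0.05; no such fit was made for the other comparisons, which share fewer than 2 numbers. Deviations of same-numbered libraries from their group means correlated at 0.12, 0.096, 0.044 and -0.048, so the numbers were not taken to pair the animals. Leaving out 1 library, the median of the members ran from -0.38 to -0.14 in old control against young, from -0.20 to 0.23 in labelled livers against old control and from -0.48 to -0.23 in labelled livers against young. Without scaling the last 2 were 0.20 and 0.023, where the median of all genes stood at 0.13 and 0.31. With at least 10 counts in every library, Sult1e1 could not be tested and gives no value. Ugt3a1 in labelled livers against old control turned to -0.019 without replicate 3 of the labelled group, and over the fits that leave out 1 library it ran from there to 1.20. The cause of these changes was not tested. The count of all genes called moved from 5 to 137 with no filter, 168 with DESeq2, 158 with the block, 15 with only the 6 libraries compared, 10 with the recovered reads, 3 with limma-voom and 2 with at least 10 counts in every library in old control against young, from 8 to 94, 124, 62, 1, 0 and 0 (no filter, DESeq2, recovered reads, at least 10 counts, limma-voom, 6 libraries) in labelled livers against young, and from 0 to 8 and 7 (no filter, DESeq2) in labelled livers against old control. With annotated exon lengths the pi class held 8.93% of the summed level in place of 16.5%. The precision is limited by 3 livers a group.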
